A study of Mus musculus with 31 samples.

Results

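The genes described here are *Tnf* and 9 genes of NF-κB feedback (*Nfkbia*, *Nfkbib*, *Nfkbie*, *Nfkbiz*, *Nfkb1*, *Nfkb2*, *Relb*, *Tnfaip3* and *Birc3*), measured by RNA-seq in mouse melanoma tumors and cultured melanoma cells given a glucocorticoid (GC) or a control. They were chosen by name, as the genes of the count table whose symbol equals a member of this list, and all 10 of 10 were found among 39179 genes. The 31 libraries come from 20 tumors and 11 cultures and were read from the 3′ ends of transcripts, so that a count is the number of reads assigned to a gene.

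The melanoma line, 20967, was derived from C57BL/6 mice carrying the alleles Nras+LSL-G12D and Tyr::CreERT2+/o, and was used either as the parental line or after loss of the glucocorticoid receptor (GR KO). GR KO cells were made by CRISPR-Cas9 editing of *Nr3c1*, the gene of the receptor, and grown from single-cell colonies, so that genotype and clone cannot be told apart. Tumors of either line grew intradermally in wild-type C57BL/6 mice, whose own immune, stromal and skin cells kept an intact receptor gene in all 4 tumor groups. The GC was clobetasol propionate, applied to the skin as 0.05% ointment 3 times weekly, and control tumors received cetraben cream, the control named in the methods. There were 5 tumors each in the parental control, parental GC, GR KO control and GR KO GC groups. Cultures of parental or GR KO cells received the vehicle DMSO or clobetasol propionate, with 3 cultures per group except for 2 parental GC cultures. For the dose in culture the sample characteristics give 10 µM, as do the methods where nothing else is stated, while the library names and the series design give 1 µM, so the dose is uncertain. The library names of all 11 cultures carry the same date and letters from A to C, and whether cultures were grown independently is not given in the sources used here, so p-values for cultures measure the spread between these samples.

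NF-κB dimers are held in the cytoplasm by IκB proteins until a signal such as TNF leads to IκB degradation, after which the dimers enter the nucleus and induce inflammatory genes. Several of the induced genes encode brakes on the same pathway, among them IκBα, the p105 and p100 precursors and the ubiquitin-editing enzyme A20. The GC receptor is known to repress many NF-κB target genes in immune cells and also to induce some of the brakes.

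Levels are given as CPM, counts scaled to library size with TMM factors over all 31 libraries, and per-sample values are listed in replicate order. Differences are log2 fold changes from edgeR with their standard error (SE), and a gene was called when its adjusted p was under 0.05 and its fold change at least 1.5. Library totals ran from 15528066 to 26386770 counts in tumors and from 14441166 to 22463188 in cultures, so that 3 counts, used as the floor, correspond to between 0.108 and 0.216 CPM. This floor covers counting error only. All 10 genes passed the low-count filter in tumors (15919 genes tested), and in cultures 9 did (12525 genes tested), with *Tnf* left untested there.

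Several libraries stood apart from their groups. In parental GC tumors 2 and 4 the scaling factors were 0.914 and 0.938, and the median correlations with their own group were 0.949 and 0.958. GR KO control tumors 1, 2 and 5 had scaling factors of 0.753, 0.816 and 0.819, with 13442, 14887 and 14335 genes detected. The median correlations with their group were 0.936, 0.949 and 0.946, but GR KO control tumor 4 was as low at 0.936, with a scaling factor of 1.1, and had the largest differences from the other tumors of its group (mean chi-square of 240 to 420 per pair). Fits without tumors 1, 2 and 5 therefore keep tumor 4 as 1 of 2 controls. These choices were not made by a fixed limit, since GR KO control tumor 3 and GR KO GC tumor 4 (both 0.952) lay below parental GC tumor 4 and were kept. Parental DMSO culture 2 had a median correlation of 0.981, beside 0.98 and 0.982 in GR KO GC cultures 1 and 3, which were kept, and was picked out in part for its low values of *Nfkbia* and *Nfkbib*, so fits without it are not independent of the members. Fits without these libraries were a choice made after seeing the data, and they are given for the GC effects on members and for several pathway calls.

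The mitochondrial share of counts differed between the treatments in GR KO tumors. It was 0.587%, 0.629%, 0.755%, 1.15% and 0.976% in GR KO control tumors and 1.48%, 1.53%, 1.9%, 1.68% and 1.99% in GR KO GC tumors, without overlap. Parental control tumors had 1.46%, 2.47%, 1.25%, 1.35% and 1.46% and parental GC tumors 2.12%, 1.58%, 2.24%, 1.33% and 2.09%, which overlapped. The part of RNA quality or tissue makeup in the results of GR KO tumors was not tested.

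*Nr3c1*, the edited gene, read 62.8, 57.6, 43.9, 55.9 and 50.5 CPM in parental control tumors and 20.4, 26.7, 31.2, 33.6 and 23.4 CPM in GR KO control tumors. It read 54.2, 23.5, 48.4, 36.4 and 49.6 CPM in parental GC tumors and 47.3, 21.4, 57.7, 31.7 and 46.9 CPM in GR KO GC tumors. In cultures it read 33.9, 30.6 and 36.3 CPM (parental, DMSO), 40.6 and 34.2 CPM (parental, GC), 25.8, 21.6 and 16.6 CPM (GR KO, DMSO) and 21.4, 22.4 and 12.9 CPM (GR KO, GC). The transcript was lower in every GR KO control tumor than in any parental control tumor, and likewise in every GR KO culture than in any parental culture. Reads from the 3′ end need not cover the edited site, whose position was not compared with them, so these levels check little. The log2 fold change of *Nr3c1* between the genotypes was -1.02 (SE 0.243, adjusted p = 0.0313 by edgeR) in control tumors, -0.02 (SE 0.24, adjusted p = 0.981 by edgeR) in GC tumors and -0.67 (SE 0.218, adjusted p = 0.084 by edgeR) in DMSO cultures.

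*Tsc22d3*, the GC-induced gene encoding GILZ, is a closer check. It read 14.8, 10.8 and 15.7 CPM in parental DMSO cultures and 119.6 and 116 CPM in parental GC cultures, against 16.6, 18.7 and 19.8 and 21.1, 14.4 and 16.8 CPM in GR KO cultures without and with GC. Its GC effect differed between the lines in culture by a log2 difference of 3.14 (SE 0.267, adjusted p = 0.000332 by edgeR). Of 6 GC-induced check genes (*Tsc22d3*, *Per1*, *Fkbp5*, *Zbtb16*, *Dusp1* and *Klf9*), 5 were tested in cultures, where 4 rose in parental cells (0.878% of all genes were called there) and edgeR called 0 in GR KO cells, with 0 at an unadjusted p under 0.05 and 0 called by DESeq2. *Zbtb16* was left untested there because the low-count filter asks for 3 samples. It read 9.71 and 10.2 CPM in the parental GC cultures and 0 CPM in all other cultures. In tumors *Tsc22d3* read 87.6, 42.5, 70.8, 87.7 and 66.5 CPM in parental control and 462, 174, 374, 338 and 458 CPM in parental GC tumors (2.34, SE 0.251, adjusted p = 1.61e-05 by edgeR). The GR KO control and GC tumors read 59.9, 44.4, 70.9, 94.1 and 61.8 CPM and 247, 244, 205, 166 and 237 CPM (1.77, SE 0.246, adjusted p = 0.000403 by edgeR). Of the check genes, 3 of 6 rose with GC in parental tumors (0.433% of all genes were called higher) and 4 of 6 in GR KO tumors (2.71%), where the host cells still had the receptor.

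Among the 10 genes, edgeR called 1 in the GC effect in parental tumors, *Tnf*, which was lower, against 124 of all genes tested (0.779%, with 0.433% higher and 0.345% lower). DESeq2 called 2, *Tnf* and *Relb*, against 2.36% of all genes. In GR KO tumors edgeR and DESeq2 each called 1, again *Tnf*, against 6.42% of all genes by edgeR (2.71% higher and 3.71% lower) and 11% by DESeq2. The median log2 fold change of the 10 genes was -0.20 in parental tumors, beside 0.00 over all genes tested, with 6 lower and 4 higher. It was -0.34 in GR KO tumors, beside 0.05, with 7 lower and 3 higher. The 2 tumor contrasts have no samples in common.

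The difference of the GC effects between parental and GR KO tumors was called by edgeR for 0 of the 10 genes, with 1 at an unadjusted p under 0.05 and 0 called by DESeq2, against 0.195% of all genes by edgeR and 4.92% by DESeq2. In parental cultures edgeR called 0 of 9 genes, with 2 at an unadjusted p under 0.05 and 0 by DESeq2, against 0.878% of all genes by edgeR and 2% by DESeq2, and the median log2 fold change was -0.08 beside -0.00. In GR KO cultures edgeR called 0 of 9 genes, with 0 at an unadjusted p under 0.05 and 0 by DESeq2, against 0% of all genes by either tool, and the median was -0.13 beside 0.02. The difference of the GC effects in culture was called by edgeR for 0 of 9, with 2 at an unadjusted p under 0.05 and 0 by DESeq2, against 0.295% of all genes by edgeR and 1.02% by DESeq2.

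**Figure D1:**
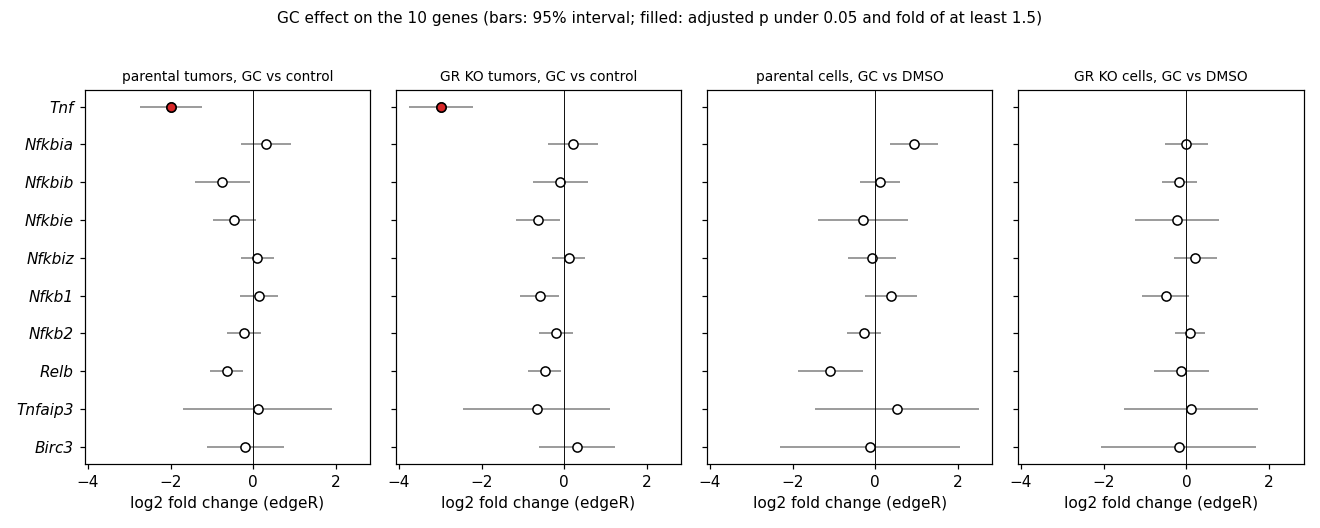
Effect of GC on the 10 genes in parental tumors, GR KO tumors, parental cells and GR KO cells. The horizontal axis is the edgeR log2 fold change of GC against control or DMSO, bars span the 95% interval, and filled points mark genes called (adjusted p under 0.05 and a fold change of at least 1.5). *Tnf* is filled in both tumor panels, at -1.99 and -2.98, and has no point in the cell panels because it was not tested there.

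*Tnf* encodes the inflammatory cytokine TNF, made above all by activated macrophages and T cells. Parental control tumors read 11.7, 9.44, 14.89, 9.9 and 11.7 CPM and parental GC tumors 3.58, 3.43, 2.35, 2.89 and 2.33 CPM. All 5 GC tumors lay below all 5 control tumors, with a wide gap between the groups. With GC the log2 fold change of *Tnf* was -1.99 (SE 0.365, adjusted p = 0.00645 by edgeR), and the adjusted p from DESeq2 was 3.82e-06. Among GR KO tumors, controls read 14.6, 20.1, 15, 18.3 and 13.4 CPM and GC tumors 2.16, 1.97, 3.62, 2.01 and 0.388 CPM. Here too the groups did not overlap, and GR KO GC tumor 5 was the lowest of all 20 tumors. This gave a log2 fold change of -2.98 (SE 0.379, adjusted p = 0.00018 by edgeR). *Tnf* thus fell with GC in tumors of both genotypes.

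The difference between the 2 GC effects on *Tnf* was 0.99 (SE 0.502, adjusted p = 0.269 by edgeR), with an unadjusted p of 0.0598 and a 95% interval of -0.04 to 2.03. A difference between genotypes was therefore not established, and a considerable one is not excluded. GR KO control tumors were not separated from parental control tumors, at a log2 fold change of 0.48 (SE 0.349, adjusted p = 0.454 by edgeR), and 2 of the 5 lay within the parental range. Without parental GC tumors 2 and 4 the fall in parental tumors kept its size at -2.09 but lost its call (adjusted p = 0.0571 from edgeR). It was also not called without those 2 and the 3 GR KO control tumors (log2 fold change -2.08, adjusted p = 0.0619 from edgeR). Over 19 alternatives the value in parental tumors ran from -2.09 to -1.87 (adjusted p from 3.82e-06 to 0.0619 from edgeR or DESeq2), and in GR KO tumors from -3.29 to -2.71 (2.88e-14 to 0.00702). Without GR KO control tumor 4 alone the GR KO value was -2.95 (adjusted p = 0.000367 from edgeR).

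In cultures *Tnf* had 0 counts in 10 of 11 libraries and 4 counts, or 0.283 CPM, in parental GC culture 1. It was therefore at or near the floor in the melanoma cells with either treatment, and an effect of GC on it was not detectable at this depth.

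**Figure D2:**
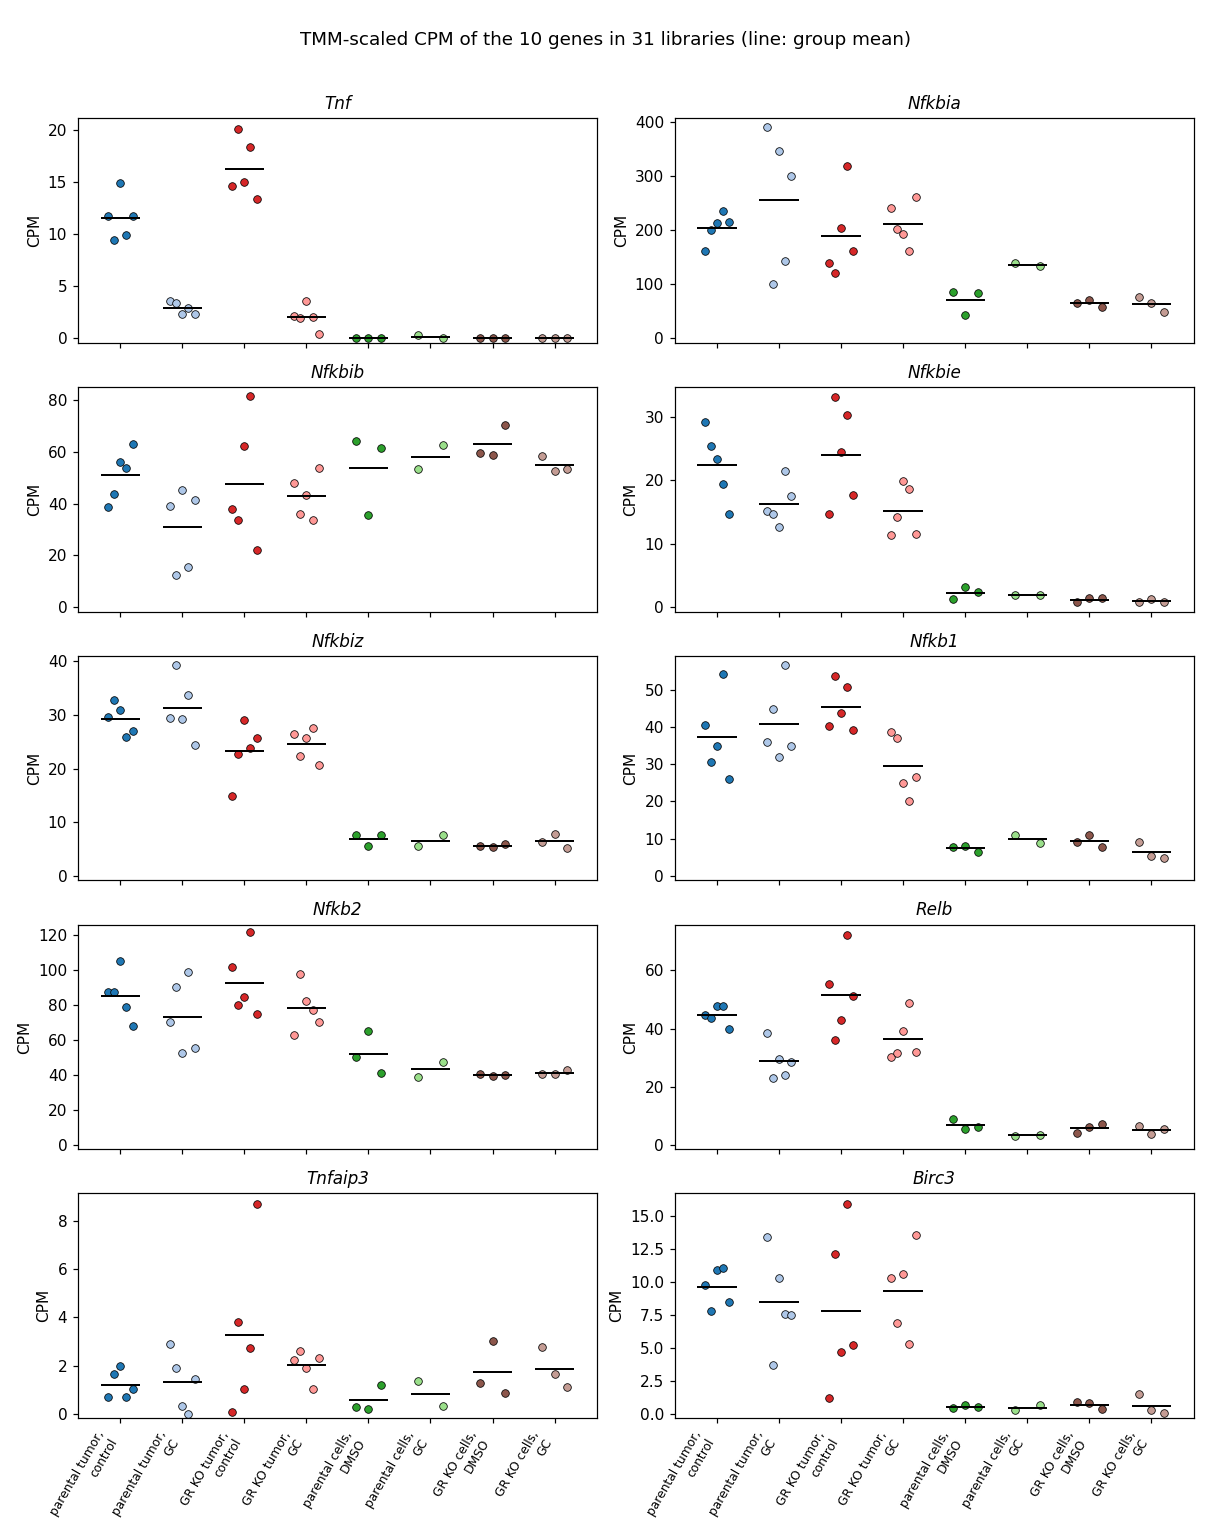
Level of each of the 10 genes in every library. Each panel is a gene, the vertical axis is TMM-scaled CPM on a linear scale starting at 0, points are libraries (5 per tumor group, 2 or 3 per culture group) and lines are group means. In the *Tnf* panel the GC tumors of both genotypes sit below the control tumors, and the cultures are at or close to 0.

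The summed level of pan-leukocyte markers was lower with GC in GR KO tumors and overlapped between treatments in parental tumors. The 5 pan-leukocyte markers, with *Laptm5* the most abundant (48.2% of the sum in tumors), summed to 1254, 1051, 993, 1277 and 946 CPM in parental control tumors and 998, 870.3, 541, 1195 and 689.9 CPM in parental GC tumors. In GR KO tumors they summed to 2762, 2025, 1863, 1781 and 1691 CPM with control treatment and 871, 1101, 834, 850.2 and 887 CPM with GC. The parental groups overlapped, while all 5 GR KO GC tumors lay below all 5 GR KO control tumors. No pan-leukocyte marker was at 0 in tumors, and in cultures the sum did not exceed 0.878 CPM. Of these 5 genes 1 was called lower with GC in parental tumors (0.345% of all genes) and 2 in GR KO tumors (3.71% of all genes). The sums themselves were not tested.

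The 14 monocyte and macrophage markers, all tested in tumors and led by *C1qa* (47.9% of the sum), summed to 6122, 6942, 4725, 5661 and 4393 CPM in parental control tumors and 7063, 8377, 4199, 9281 and 6082 CPM in parental GC tumors. They summed to 9479, 8428, 6617, 8349 and 7128 CPM in GR KO control tumors and 5989, 8727, 5666, 5555 and 5145 CPM in GR KO GC tumors. The parental groups overlapped. In GR KO tumors the overlap came from GC tumor 2 alone, and the other 4 GC tumors lay below every control. None of the 14 was at 0 in tumors. In parental tumors edgeR called 0 of them, with 4 at an unadjusted p under 0.05 and 1 by DESeq2, and in GR KO tumors it called 1, higher (2.71% of all genes), with 4 at an unadjusted p under 0.05 and 3 by DESeq2. In cultures the sum was 2.76 to 12.6 CPM, with *Emr1* and *Fcgr1* at 0.

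The 13 T and NK cell markers, led by *Cd2* (29.8% of the sum) and with *Trac* at 0, summed to 223, 184, 132, 210.1 and 113 CPM and 153, 123, 75.3, 145 and 114 CPM in parental control and GC tumors. In GR KO control and GC tumors the sums were 248, 269, 199.6, 394 and 193 CPM and 102, 160.1, 129.7, 80.7 and 81.3 CPM. These sums overlapped between treatments in parental tumors and did not overlap in GR KO tumors, where 3 of 12 tested markers were called lower with GC (3.71% of all genes). In parental tumors edgeR called 0 of 12, with 5 at an unadjusted p under 0.05 and 1 by DESeq2. The part of these markers in the fall of *Tnf* was not tested, and in bulk tumors fewer cells of a type and less RNA per cell cannot be told apart. Within groups, the deviations of *Tnf* from its group means had a Pearson correlation of 0.181 (Spearman 0.189, 0.158 without the 2 tumors farthest from the median) with those of the macrophage sum. The value was 0.356 (0.316, 0.221) with the T and NK cell sum and about as high, 0.344 (0.322, 0.241), with the sum of striated muscle markers. The other marker lists lay between -0.185 and 0.158. These values are over 20 tumors that share depth and tissue makeup.

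**Figure D3:**
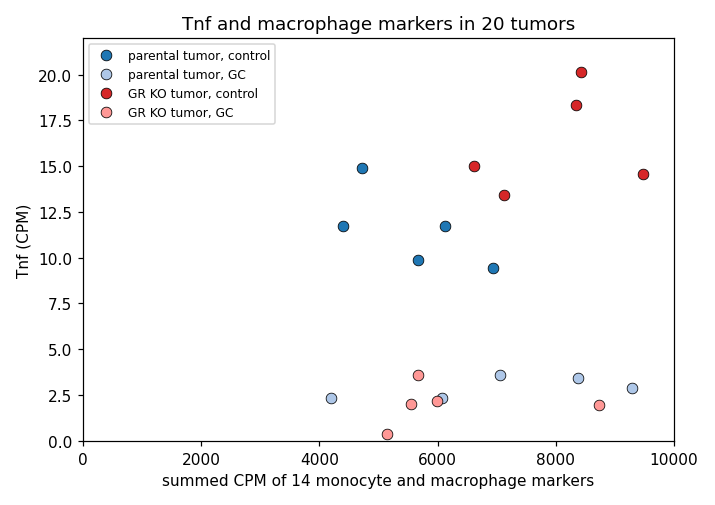
*Tnf* against the summed level of 14 monocyte and macrophage markers in 20 tumors. The vertical axis is *Tnf* in CPM, the horizontal axis is the summed CPM of the markers, each point is a tumor and colors give the group. All 10 GC tumors lie below 4 CPM of *Tnf*, at marker sums of 4199 to 9281 CPM.

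Summed markers of stroma did not overlap between treatments, although these sums were not tested. The 7 fibroblast markers, led by *Col3a1* (35.3% of the sum), summed to 6682, 7460, 6820, 7509 and 6920 CPM in parental control and 10860, 7978, 10760, 7520 and 10690 CPM in parental GC tumors. In GR KO control and GC tumors they summed to 3636, 3895, 4531, 6946 and 5098 CPM and 9881, 8023, 11270, 7208 and 10660 CPM. The sums were higher with GC without overlap in both genotypes, by a small margin in parental tumors. Of the 7 genes edgeR called 0 in parental tumors, with 4 at an unadjusted p under 0.05 and 1 by DESeq2, and 4 higher in GR KO tumors (2.71% of all genes).

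The 5 endothelial markers, led by *Kdr* (48.2% of the sum), summed to 66.5, 54.1, 47.4, 69.9 and 49.5 CPM in parental control and 37, 17.9, 28.4, 34.4 and 35.6 CPM in parental GC tumors. In GR KO control and GC tumors they summed to 100, 81.9, 104, 111 and 84.3 CPM and 51.2, 58, 49.2, 45.5 and 49.1 CPM. These sums were lower with GC without overlap in both genotypes, as *Tnf* was. Of the 5 genes edgeR called 0 in parental tumors, with 3 at an unadjusted p under 0.05 and 1 by DESeq2, and 1 lower in GR KO tumors (3.71% of all genes).

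The 7 keratinocyte markers, led by *Krt14* (51.9% of the sum), summed to 1571, 1623, 1852, 1630 and 3627 CPM in parental control and 1666, 2291, 1758, 1892 and 1864 CPM in parental GC tumors, which overlapped. Of the 7 genes edgeR called 0 in parental tumors, with 3 at an unadjusted p under 0.05 and 1 by DESeq2. For GR KO tumors the sums were 4167, 4798, 3723, 2514 and 2744 CPM in controls and 1248, 1611, 1928, 2003 and 1697 CPM with GC, lower without overlap, although 2 of the genes were called higher and 2 lower (2.71% and 3.71% of all genes). Summed fibroblast and endothelial markers thus did not overlap between treatments in either genotype. In GR KO tumors the pan-leukocyte, T and NK cell and keratinocyte sums did not overlap either. The sums were not tested, nor was the part of these markers in the results.

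The 8 neutrophil markers, led by *S100a8* (58.1% of the sum) and with *Ly6g* at 0, summed to 53.1, 95.6, 262, 67.6 and 1256 CPM in parental control and 39.7, 29.3, 28.9, 43.8 and 56.5 CPM in parental GC tumors. In GR KO control and GC tumors they summed to 465, 814, 306, 246 and 1059 CPM and 116, 73.2, 257, 221 and 148 CPM. Each pair of groups overlapped at the edge, and 2 of 7 tested genes in parental (0.345% of all genes) and 1 in GR KO tumors (3.71%) were called lower.

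The 8 melanocyte lineage markers summed to 25.5 to 56.5 CPM in tumors, where treatments overlapped, and 3.24 to 12.1 CPM in cultures, and *Mitf* made up 82.6% and 96.8% of these sums. The defining markers *Sox10*, *Dct*, *Tyr* and *Mlana* were at 0 in every culture, and *Tyr* also in every tumor. The melanoma label of the line comes from the mouse model it was derived from, and these values do not test it.

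The 8 dendritic cell markers were dominated by *Fscn1* (96.3% of the sum in tumors, 98.0% in cultures), which the melanoma cells themselves expressed. They summed to 1020 to 1524 CPM in parental control, 339.9 to 1044 CPM in parental GC, 929.9 to 1483 CPM in GR KO control and 736 to 1077 CPM in GR KO GC tumors. In the same order, the 5 B cell markers summed to 5.81 to 9.72, 3.69 to 10.6, 7.2 to 14.1 and 3 to 8.04 CPM. The 6 striated muscle markers summed to 320.4 to 410.0, 226 to 538, 288 to 572 and 224 to 346 CPM. For these 3 lists the treatments overlapped in both genotypes. In parental tumors edgeR called 0 genes of each list, with 2 dendritic and 2 muscle genes at an unadjusted p under 0.05. DESeq2 called 1 dendritic gene there. In GR KO tumors edgeR called 1 of 7 tested dendritic genes and 1 of 6 muscle genes lower (3.71% of all genes). It called 0 of 2 tested B cell genes. DESeq2 called 1 dendritic, 2 muscle and 1 B cell gene in these tumors.

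Of the 4 IκB inhibitors, *Nfkbia* encodes IκBα, the inhibitor that is resynthesised under NF-κB control. Parental control tumors read 162, 199.9, 213, 235 and 215 CPM and parental GC tumors 391, 100, 348, 143 and 302 CPM. GC tumors 1, 3 and 5 lay above every control tumor, while GC tumors 2 and 4, which stood apart as libraries, lay below every one. The log2 fold change of 0.31 (SE 0.29, adjusted p = 0.675 by edgeR) did not pass the test, and without tumors 2 and 4 it was 0.73 (adjusted p = 0.384 from edgeR, and 0.141 to 0.881 over all alternatives). Among GR KO tumors, controls read 139, 122, 205, 320.1 and 161 CPM and GC tumors 240.5, 202, 194, 162 and 262 CPM. The GR KO GC tumors lay within the range of the controls, and the log2 fold change was 0.21 (SE 0.29, adjusted p = 0.694 by edgeR), turning to -0.27 (adjusted p = 0.835 from edgeR, and 0.284 to 0.896 over all alternatives) without GR KO control tumors 1, 2 and 5.

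In cultures *Nfkbia* read 86.1, 42.7 and 84 CPM in parental cells with DMSO and 139.5 and 133 CPM with GC. Both GC cultures lay above all 3 DMSO cultures, of which culture 2 was the lowest. At 0.93 (SE 0.262, adjusted p = 0.198 by edgeR) the difference had an unadjusted p of 0.0042, and DESeq2 gave an adjusted p of 0.0549, so it was not called by either tool. Without DMSO culture 2 the value was 0.67 (adjusted p = 0.237 from edgeR, and 0.0549 to 0.882 over all alternatives). GR KO cultures read 65.3, 71 and 58.5 CPM with DMSO and 76.6, 65.2 and 49 CPM with GC, which overlapped. With GC the log2 fold change there was -0.000259 (SE 0.238, adjusted p = 1 by edgeR), and the difference between the lines was 0.93 (SE 0.354, adjusted p = 0.53 by edgeR) with a 95% interval of 0.16 to 1.71.

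*Nfkbib* encodes IκBβ, a slower IκB that retains NF-κB in the cytoplasm. It read 38.8, 43.7, 56, 53.8 and 63.1 CPM in parental control tumors and 39.1, 12.6, 45.4, 15.6 and 41.4 CPM in parental GC tumors. The 2 lowest values were again GC tumors 2 and 4, and the other 3 GC tumors lay within the control range. At -0.74 (SE 0.326, adjusted p = 0.302 by edgeR) *Nfkbib* was not called, and without those 2 tumors the value was -0.31. In GR KO tumors the controls spread from 22 to 81.7 CPM and the GC tumors from 33.7 to 53.8 CPM, inside that range (log2 fold change -0.10, SE 0.324, adjusted p = 0.885 by edgeR). Over all alternatives this value ran from -0.71 to 0.16, with -0.71 without GR KO control tumors 1, 2 and 5, and was never called. In cultures it read 35.5 to 70.4 CPM, with the lowest value in parental DMSO culture 2. The GR KO cultures read 59.5, 58.7 and 70.4 CPM with DMSO and 58.3, 52.6 and 53.5 CPM with GC, just without overlap, and the log2 fold change of -0.17 (SE 0.198, adjusted p = 0.976 by edgeR) was not called.

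*Nfkbie* encodes IκBε, another IκB induced by NF-κB. Parental control tumors read 29.3, 25.5, 23.4, 19.5 and 14.8 CPM and parental GC tumors 15.2, 14.7, 12.7, 21.5 and 17.5 CPM, and GR KO control and GC tumors read 14.7, 33.1, 24.5, 30.4 and 17.7 CPM and 11.4, 14.2, 19.9, 18.6 and 11.6 CPM. GC tumors tended to the lower end in both genotypes, but each pair of groups overlapped. The log2 fold changes were -0.46 (SE 0.254, adjusted p = 0.426 by edgeR) in parental tumors and -0.64 (SE 0.255, adjusted p = 0.126 by edgeR) in GR KO tumors, and neither was called. Cultures read 0.755 to 3.2 CPM.

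*Nfkbiz* encodes IκBζ, a nuclear member of the family that helps to induce secondary response genes. It had a narrow range in tumors, 24.4 to 39.3 CPM in the 10 parental and 14.94 to 29.1 CPM in the 10 GR KO tumors, and GC and control groups overlapped in each. The log2 fold change with GC was 0.10 (SE 0.192, adjusted p = 0.866 by edgeR) in parental tumors, with a 95% interval of -0.30 to 0.50. The GR KO value was 0.11 (SE 0.193, adjusted p = 0.772 by edgeR), with an interval of -0.29 to 0.51. Cultures read 5.18 to 7.78 CPM with no separation by treatment.

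Among the 3 NF-κB subunits, *Relb* encodes RelB, the partner of p52 in the non-canonical pathway. Parental control tumors read 44.7, 43.7, 47.7, 47.7 and 39.7 CPM and parental GC tumors 38.4, 23.1, 29.4, 24.1 and 28.3 CPM. Every GC tumor lay below every control tumor, with GC tumor 1 close to the lowest control. The log2 fold change of -0.65 (SE 0.193, adjusted p = 0.126 by edgeR) was not called by edgeR (unadjusted p = 0.0027), whereas DESeq2 called it at an adjusted p of 0.0496. Without parental GC tumors 2 and 4 it was -0.50 (adjusted p = 0.626 from edgeR), and over 20 alternatives it ran from -0.76 to -0.49, with adjusted p from 0.0496 to 0.626 from edgeR or DESeq2.

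For *Relb* in GR KO tumors, controls read 55.5, 36, 43.1, 72.3 and 51.3 CPM and GC tumors 30.1, 31.5, 39.2, 48.9 and 32 CPM. Here 3 of the 5 GC tumors lay below all controls and the groups overlapped (log2 fold change -0.47, SE 0.193, adjusted p = 0.135 by edgeR). The difference between the genotypes was -0.18 (SE 0.272, adjusted p = 0.751 by edgeR). Parental cultures read 8.9, 5.4 and 6.11 CPM with DMSO and 3.19 and 3.24 CPM with GC, without overlap, at a log2 fold change of -1.09 (SE 0.356, adjusted p = 0.328 by edgeR). GR KO cultures read 4.15, 6.08 and 6.99 and 6.38, 3.58 and 5.56 CPM and overlapped (log2 fold change -0.13, SE 0.305, adjusted p = 0.98 by edgeR), and the difference between the lines was -0.96 (SE 0.465, adjusted p = 0.576 by edgeR). In tumors and cultures of both genotypes *Relb* had negative log2 fold changes with GC, edgeR called none of them, and no difference between genotypes was established. The value in GR KO cultures ran from -0.32 to 0.08 over 14 alternatives, so its sign was not stable.

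*Nfkb1* encodes p105, the precursor of the p50 subunit. GR KO control tumors read 40.2, 53.8, 43.6, 50.6 and 39.2 CPM and GR KO GC tumors 38.7, 37.1, 24.8, 20.1 and 26.5 CPM, so that all 5 GC tumors were below all 5 controls by a small margin. Parental control tumors read 40.5, 30.7, 35, 54.1 and 25.9 CPM and parental GC tumors 36.1, 44.7, 31.8, 56.5 and 34.9 CPM, which overlapped almost fully. Its log2 fold change was -0.60 (SE 0.225, adjusted p = 0.105 by edgeR) in GR KO tumors, not called, and 0.14 (SE 0.224, adjusted p = 0.832 by edgeR) in parental tumors. The difference between the 2 effects was 0.73 (SE 0.317, adjusted p = 0.199 by edgeR), with an unadjusted p of 0.0295. Parental cultures read 7.84, 8.1 and 6.47 CPM with DMSO and 10.9 and 8.75 CPM with GC, and GR KO cultures 9, 11 and 7.76 and 9.01, 5.28 and 4.93 CPM. Both parental GC cultures lay above the DMSO cultures and 2 of 3 GR KO GC cultures below theirs, but the difference between the lines of 0.89 (SE 0.388, adjusted p = 0.564 by edgeR) was not called.

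*Nfkb2* encodes p100, which is processed to p52 and restrains RelB until then. It read 67.8 to 105 CPM in parental control and 52.4 to 98.8 CPM in parental GC tumors, and 74.8 to 122 and 63 to 98.1 CPM in GR KO control and GC tumors. All 4 ranges overlapped, and the log2 fold changes with GC were -0.21 (SE 0.2, adjusted p = 0.672 by edgeR) and -0.21 (SE 0.199, adjusted p = 0.544 by edgeR). The parental value moved to -0.55 without GC tumors 2 and 4, the far end of a range from -0.55 to -0.11 over all alternatives, and was not called. In cultures it read 50.2, 65.3 and 41 CPM in parental DMSO cells and 40.8, 39.2 and 40.0 CPM in GR KO DMSO cells. All 3 GR KO cultures lay below all 3 parental ones, and the log2 fold change of GR KO against parental was -0.39 (SE 0.165, adjusted p = 0.17 by edgeR).

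The remaining members act on ubiquitin chains. *Tnfaip3* encodes A20, which edits and removes ubiquitin chains to end TNF signaling. It was low and scattered, with 0.694, 1.65, 1.96, 0.707 and 1.01 CPM in parental control tumors and 2.9, 1.92, 0.311, 0 and 1.42 CPM in parental GC tumors. GR KO control tumors read 0.0722, 3.79, 1.02, 2.73 and 8.72 CPM and GR KO GC tumors 2.25, 2.61, 1.88, 1.03 and 2.33 CPM. The lowest and the highest GR KO control, tumors 1 and 5, both stood apart as libraries, and GC and control ranges overlapped in each genotype. The standard errors of the log2 fold changes, 0.87 in parental and 0.862 in GR KO tumors, exceeded the values of 0.11 and -0.66. Cultures read 0.188 to 1.35 CPM in parental and 0.874 to 3.04 CPM in GR KO cells.

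*Birc3* encodes cIAP2, a ubiquitin ligase of the TNF receptor complex. It read 9.78, 7.79, 10.9, 11 and 8.47 CPM in parental control, 13.4, 3.68, 10.3, 7.55 and 7.5 CPM in parental GC, 1.15, 12.1, 4.68, 15.9 and 5.18 CPM in GR KO control and 10.3, 6.87, 10.6, 5.32 and 13.6 CPM in GR KO GC tumors. The 4 groups overlapped, and the lowest tumor was GR KO control tumor 1. Neither log2 fold change with GC was called, at -0.19 (SE 0.449, adjusted p = 0.898 by edgeR) in parental and 0.30 (SE 0.449, adjusted p = 0.717 by edgeR) in GR KO tumors. In cultures *Birc3* read 0.0625 to 1.46 CPM.

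Leaving out the libraries that stood apart moved several of these values, and none of the values below was called. Without parental GC tumors 2 and 4 the parental log2 fold change was -0.59 for *Nfkbie*, -0.10 for *Nfkbiz*, -0.14 for *Nfkb1*, 0.32 for *Tnfaip3* and 0.09 for *Birc3*. Without GR KO control tumors 1, 2 and 5 the GR KO value was -0.83 for *Nfkbie*, -0.08 for *Nfkbiz*, -0.65 for *Nfkb1*, -0.37 for *Nfkb2*, -0.63 for *Relb*, 0.14 for *Tnfaip3* and -0.10 for *Birc3*. Without parental DMSO culture 2 the value in parental cells was -0.12 for *Nfkbib*, 0.00 for *Nfkbie*, -0.21 for *Nfkbiz*, 0.44 for *Nfkb1*, -0.09 for *Nfkb2*, -1.23 for *Relb*, 0.11 for *Tnfaip3* and 0.02 for *Birc3*.

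None of these genes was called for genotype alone. In control tumors, GR KO against parental, edgeR called 0 of the 10 genes, with 0 at an unadjusted p under 0.05 and 0 by DESeq2, against 2.25% of all genes by edgeR and 6.29% by DESeq2. In GC tumors edgeR called 0 of 10, with 0 at an unadjusted p under 0.05 and 0 by DESeq2, against 0.634% by edgeR and 1.84% by DESeq2. In DMSO cultures edgeR called 0 of 9, with 1 (*Nfkb2*) at an unadjusted p under 0.05 and 0 by DESeq2, against 8.22% by edgeR and 11.4% by DESeq2. The largest values there were those of 2 low genes, *Tnfaip3* at 1.62 (SE 0.795, adjusted p = 0.235 by edgeR) and *Nfkbie* at -0.97 (SE 0.452, adjusted p = 0.216 by edgeR).

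The order of group means differed by gene. For *Tnf* it ran from GR KO control tumors (16.3 CPM) and parental control tumors (11.5 CPM) through parental GC tumors (2.92 CPM) and GR KO GC tumors (2.03 CPM) to the cultures, and the ranges of the control groups overlapped, as did those of the GC groups. For *Nfkbia* the 4 tumor groups, with means of 189 to 257 CPM, overlapped, and parental GC cells (136 CPM) stood above the other 3 culture groups (63.6 to 70.9 CPM). In *Nfkbib* the cultures came before the tumors, with the highest mean in GR KO DMSO cells (62.9 CPM) and the lowest in parental GC tumors (30.8 CPM), and neighbours overlapped throughout. *Relb* was lowest in parental GC cells (3.216 CPM), below the 5.17 CPM of GR KO GC cells without overlap. For *Nfkb2* and *Tnfaip3* all neighbours in the order overlapped.

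Tumors and cultures were separate in range for *Tnf*, *Nfkbie*, *Nfkbiz*, *Nfkb1* and *Relb*. The median over 20 tumors was 13.2 times that over 11 cultures for *Nfkbie*, 7.10 times for *Relb*, 4.68 times for *Nfkb1* and 4.48 times for *Nfkbiz*. *Birc3* had a ratio of 16.9 but its ranges overlapped through GR KO control tumor 1. *Nfkbia* (2.87), *Nfkb2* (1.99), *Tnfaip3* (1.47) and *Nfkbib* (0.723) overlapped as well. No test was made of these ratios, since host cells and growth conditions differ together between tumors and cultures.

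The members did not vary as a block within groups. Over 20 tumors, with group means removed from log2(CPM + 1), the 45 pairs of members had a median Pearson correlation of 0.114 (-0.361 to 0.894), and 2 pairs exceeded 0.5. The mean over these pairs was 0.109, beside 0.00683 over all pairs of 13349 genes. The highest was between *Nfkbia* and *Nfkbib* (Pearson 0.894, Spearman 0.913, and 0.834 without the 2 tumors farthest from the median). Both genes were lowest in parental GC tumors 2 and 4 and in GR KO control tumors 1, 2 and 5 within their groups. The part of these tumors in the correlation was not tested. *Nfkbia* and *Birc3* had 0.572 (Spearman 0.544), and this was 0.357 without the 2 farthest tumors. The libraries share depth and makeup, so these are descriptions only.

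The genes most like *Nfkbia* by this measure were *Lpcat2* (0.965), *Nudt3* (0.964), *Trp53inp2* (0.962), *Cept1* (0.96) and *Rpl22l1* (0.958), each at 0.941 or more without the 2 farthest tumors. That check does not remove all the tumors that stood apart. Among them, parental GC tumors 2 and 4 and GR KO control tumors 1, 2 and 5 had the lowest *Nfkbia* of their groups. Their part in the values for *Nfkbia*, including those with marker sums, was not tested. The deviations of *Nfkbia* also followed the summed fibroblast markers (Pearson 0.785, Spearman 0.798) and the *Fscn1*-led dendritic list (0.841 and 0.779). They followed the endothelial sum (0.57 and 0.457) and the striated muscle sum (0.468 and 0.31) less closely, at 0.251 and 0.224 without the 2 farthest tumors. They ran against the macrophage sum (-0.49 and -0.481), the keratinocyte sum (-0.414 and -0.483), the pan-leukocyte sum (-0.411 in both) and the B cell sum (-0.362 and -0.286). For *Tnf* the most alike were *Lhfpl1* (0.7), *Tnni2* (0.671), *Eef1a2* (0.638), *Pde1b* (0.631) and *Slmo2* (0.625). Without the 2 farthest tumors *Tnni2*, *Pde1b* and *Slmo2* were at 0.377, 0.233 and 0.361 and so rested on those samples, while *Lhfpl1* (0.691) and *Eef1a2* (0.721) did not. The choice of genes itself depended on the pseudocount, since at 0.1 in place of 1 *Lhfpl1* (0.601) and *Eef1a2* (0.585) left the 5 most alike, and *1700009P17Rik* (0.667) and *Prdx6* (0.641) entered, the latter at 0.0609 without the 2 farthest tumors.

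Other genes of the pathway were read from 6 lists of 92 genes, of which 86 were tested in tumors and 67 in cultures. With GC in parental tumors edgeR called 2 higher and 2 lower, and the median log2 fold change was -0.18 beside 0.00 over all genes, with 10 called by DESeq2, against 0.779% of all genes by edgeR and 2.36% by DESeq2. In GR KO tumors 1 was called higher and 9 lower, the median was -0.11 beside 0.05, and DESeq2 called 16, against 6.42% of all genes by edgeR (2.71% higher and 3.71% lower) and 11% by DESeq2. For the difference of the effects between the tumors edgeR called 0 and DESeq2 8, against 0.195% of all genes by edgeR and 4.92% by DESeq2. In parental cultures 1 was called, lower, and 3 by DESeq2 (0.878% and 2% of all genes), and in GR KO cultures edgeR and DESeq2 each called 0. The difference of the effects in culture was called for 1 (*Timp3*) by each tool, against 0.295% of all genes by edgeR and 1.02% by DESeq2. For genotype, edgeR called 1 in control tumors (*Rela*; 2.25% of all genes; 7 by DESeq2, against 6.29%), 1 in GC tumors (*Timp3*, at -1.44 (SE 0.212, adjusted p = 0.0012 by edgeR); 0.634% of all genes; 2 by DESeq2, against 1.84%) and 6 in DMSO cultures (2 higher and 4 lower; 8.22% of all genes; 8 by DESeq2, against 11.4%).

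Of 13 ligands and receptors tested in tumors, *Ltb*, the lymphotoxin subunit that signals to RelB and p52, fell in both genotypes (0.345% of all genes were called lower in parental and 3.71% in GR KO tumors). It read 14.7, 4.5, 5.88, 7.01 and 3.28 CPM in parental control and 1.87, 1.16, 1.47, 1.4 and 1.53 CPM in parental GC tumors, and 12, 10.9, 11.8, 8.89 and 8.23 and 1.06, 4.1, 2.15, 0.207 and 2.76 CPM in GR KO control and GC tumors. Groups did not overlap in either genotype and all cultures had 0 CPM. The log2 fold changes were -2.25 (SE 0.515, adjusted p = 0.0348 by edgeR) and -2.30 (SE 0.512, adjusted p = 0.0111 by edgeR). The call in parental tumors held in 2 of 10 fits that left out 1 tumor (without control tumor 2 or 5) and was lost in the other 8 (adjusted p from 0.0502 to 0.124 from edgeR), and that in GR KO tumors was lost without control tumors 1, 2 and 5 (log2 fold change -2.31, adjusted p = 0.104 from edgeR). Over 19 alternatives the value stayed between -2.42 and -1.79 in parental tumors (adjusted p from 0.000755 to 0.292 from edgeR or DESeq2) and between -2.70 and -2.01 in GR KO tumors (0.000169 to 0.104).

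*Cd40*, the costimulatory receptor that activates the non-canonical pathway, fell in GR KO tumors, at a log2 fold change of -0.94 (SE 0.272, adjusted p = 0.0389 by edgeR). It read 30.5, 36.8, 48, 45.5 and 35.6 CPM in the controls and 12.6, 18.7, 21.2, 24 and 23.1 CPM in the GC tumors. Parental control tumors read 16.25 to 27.4 CPM and parental GC tumors 6.17 to 22.1 CPM. Every GR KO control thus lay above every parental control, a difference that edgeR did not call. Its call was lost in 8 of 10 fits leaving out 1 tumor (up to 0.107), all but those without GR KO control tumor 4 or GC tumor 4, and over 20 alternatives the value ran from -1.20 to -0.82 (adjusted p from 0.0107 to 0.131 from edgeR or DESeq2). The parental value was -0.84 (SE 0.273, adjusted p = 0.166 by edgeR) and the difference of the effects 0.10 (SE 0.383, adjusted p = 0.908 by edgeR).

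Of 25 adaptors and kinases, 0 were called by edgeR in parental tumors (1 by DESeq2) and 2 fell in GR KO tumors, where 3.71% of all genes were called lower. *Map3k14*, encoding NIK, the kinase that starts p100 processing, read 109, 99.3, 68.2, 43.1 and 58.2 CPM in GR KO control and 27.1, 39.5, 25.5, 24 and 18.6 CPM in GR KO GC tumors. *Traf1*, an adaptor gene induced by NF-κB, read 52.5, 48.1, 45.4, 62.1 and 47.1 and 22.3, 26.5, 18.9, 9.71 and 17 CPM. In both genes the 2 groups did not overlap, and the log2 fold changes were -1.47 (SE 0.303, adjusted p = 0.00743 by edgeR) and -1.40 (SE 0.231, adjusted p = 0.00188 by edgeR). The call of *Map3k14* was lost without GR KO control tumors 1, 2 and 5 (log2 fold change -1.03, adjusted p = 0.212 from edgeR, and 0.000146 to 0.212 over all alternatives), of which tumors 1 and 2 had its highest values. In parental tumors *Traf1* was at -0.88 (SE 0.229, adjusted p = 0.0698 by edgeR) and *Map3k14* at 0.09 (SE 0.298, adjusted p = 0.924 by edgeR). The difference of the effects between genotypes was 0.52 (SE 0.321, adjusted p = 0.363 by edgeR) for *Traf1* and 1.56 (SE 0.423, adjusted p = 0.0853 by edgeR) for *Map3k14*.

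Of 5 other subunit and IκB genes, *Rela*, encoding the p65 subunit, fell with GC in GR KO tumors (3.71% of all genes were called lower) at a log2 fold change of -1.28 (SE 0.223, adjusted p = 0.00263 by edgeR). GR KO control tumors read 1023, 749, 566, 489.9 and 671 CPM and GR KO GC tumors 304, 359, 193, 348 and 209 CPM, against 310.0, 352, 307, 377 and 356 and 276, 458, 308, 338 and 319 CPM in parental control and GC tumors. The high values were those of the GR KO controls, led by tumors 1 and 2, and the genotype contrast of control tumors was also called (1.03, SE 0.222, adjusted p = 0.0252 by edgeR). Without GR KO control tumors 1, 2 and 5 the fall was not called (-0.88, adjusted p = 0.12 from edgeR, and 2.56e-06 to 0.12 over all alternatives). The difference of the GC effects was 1.28 (SE 0.312, adjusted p = 0.079 by edgeR).

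Of 18 ubiquitin and RNA brakes, 0 were called by either tool in parental tumors and 1 fell in GR KO tumors (3.71% of all genes were called lower), *Tnip3*, which encodes an A20-binding inhibitor of NF-κB. It read 2.31, 13.4, 15, 22.2 and 18.1 CPM in GR KO control and 1.45, 2.98, 2.5, 5.53 and 3.06 CPM in GR KO GC tumors, overlapping through control tumor 1, with a log2 fold change of -2.15 (SE 0.427, adjusted p = 0.00575 by edgeR). In parental tumors it read 13.3, 9.78, 13.9, 10.3 and 7.1 and 4.41, 6.1, 6.35, 5.44 and 3.81 CPM without overlap, but the value of -1.06 (SE 0.413, adjusted p = 0.242 by edgeR) was not called, and the difference of the effects was 1.09 (SE 0.582, adjusted p = 0.291 by edgeR).

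Of 20 target genes tested in tumors, *Ccl4*, a chemokine of activated myeloid and T cells, fell in both genotypes and *Vcam1*, an adhesion molecule of endothelium and stroma, rose in both. In parental tumors 0.345% of all genes were called lower and 0.433% higher, and in GR KO tumors 3.71% and 2.71%. *Ccl4* read 23.2, 9.49, 16.9, 26.5 and 14.7 CPM in parental control and 8.45, 2.77, 3.46, 3.71 and 3.92 CPM in parental GC tumors (-2.03, SE 0.341, adjusted p = 0.00355 by edgeR), and 13.1, 34.5, 23.2, 40.3 and 19.8 and 7.88, 6.44, 7.77, 6.97 and 4.96 CPM in GR KO control and GC tumors (-1.91, SE 0.338, adjusted p = 0.00288 by edgeR). Without parental GC tumors 2 and 4 the parental value was -1.81 and not called (adjusted p = 0.0701 from edgeR, and 1.73e-06 to 0.0701 over all alternatives). *Vcam1* read 94.6, 103, 88, 117 and 70.1 CPM in parental control and 244, 148, 199, 164 and 200.3 CPM in parental GC tumors (1.01, SE 0.195, adjusted p = 0.00957 by edgeR). Its GR KO levels were 74.7, 66.3, 57, 113 and 79.5 and 203, 219, 156, 131 and 180.4 CPM (1.23, SE 0.196, adjusted p = 0.00142 by edgeR), a call lost without GR KO control tumors 1, 2 and 5 (log2 fold change 1.10, adjusted p = 0.104 from edgeR). Over 20 alternatives this value stayed between 1.10 and 1.38, with adjusted p from 1.13e-06 to 0.104 from edgeR or DESeq2. In the same tumors the summed endothelial markers were lower and the summed fibroblast markers higher with GC, and their part in the rise of *Vcam1* was not tested.

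*Cd83*, a gene of activated dendritic cells, and *Icam1*, an adhesion molecule, fell in GR KO tumors. *Cd83* read 52.5, 50.3, 92.9, 78.5 and 26.5 CPM in the controls and 15.7, 18.1, 13.6, 12.1 and 16.4 CPM with GC, without overlap (-1.95, SE 0.272, adjusted p = 0.000403 by edgeR). Parental tumors read 47.7, 45.2, 33.9, 41.6 and 38.4 CPM and 25.6, 18.6, 11.9, 27.9 and 17.9 CPM, also without overlap, but the value of -1.02 (SE 0.266, adjusted p = 0.0703 by edgeR) was not called, and the difference of the effects was 0.93 (SE 0.373, adjusted p = 0.174 by edgeR). *Icam1* read 32.8, 47.9, 62.8, 78.4 and 27.4 CPM in GR KO controls and 32.4, 27.2, 31.3, 19.7 and 25.3 CPM with GC, with overlap, at -0.84 (SE 0.239, adjusted p = 0.0373 by edgeR). It read 51.9, 38.3, 51.6, 44.7 and 41.1 CPM in parental control and 37, 20.9, 26.3, 35.6 and 34.2 CPM in parental GC tumors, without overlap. This parental value, -0.57 (SE 0.238, adjusted p = 0.277 by edgeR), was not called, and the difference was 0.27 (SE 0.336, adjusted p = 0.691 by edgeR). The GR KO call was lost in 8 of 10 fits leaving out 1 tumor (up to 0.0917), all but those without GR KO control tumor 1 or 5, and over 20 alternatives the value ran from -1.35 to -0.64 (adjusted p from 0.00647 to 0.0964 from edgeR or DESeq2). The median log2 fold change of the 20 target genes was -0.99 in parental and -0.19 in GR KO tumors, beside 0.00 and 0.05 over all genes. Among the targets edgeR called only *Ccl4* and *Vcam1* in parental tumors, and these with *Cd83* and *Icam1* in GR KO tumors. The difference between the medians was not tested, nor was the part of the neutrophil markers called lower in the same tumors.

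Of 5 genes that process TNF, *Timp3*, the inhibitor of the TNF-releasing protease ADAM17, rose with GC in parental tumors and fell in parental cultures. It read 553, 451, 457, 589 and 422 CPM in parental control and 665, 1500, 1125, 857 and 962 CPM in parental GC tumors, without overlap, at a log2 fold change of 1.05 (SE 0.21, adjusted p = 0.0128 by edgeR). GR KO tumors read 344, 488, 336, 368 and 456 and 320.0, 423, 324, 472 and 329.8 CPM and overlapped (-0.06, SE 0.208, adjusted p = 0.883 by edgeR), and the difference between the genotypes was 1.12 (SE 0.295, adjusted p = 0.0843 by edgeR). Without parental GC tumors 2 and 4, the first of them the highest, the rise was 0.87 and not called (adjusted p = 0.12 from edgeR, and 0.000134 to 0.12 over all alternatives).

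In parental cultures *Timp3* read 479.8, 529.7 and 509 CPM with DMSO and 229.5 and 258 CPM with GC. Both GC cultures were far below the DMSO cultures, at a log2 fold change of -1.06 (SE 0.14, adjusted p = 0.00359 by edgeR), and 1 of 5 fits leaving out a parental culture lost the call (without GC culture 1, adjusted p = 0.0892 from edgeR, and 1.3e-10 to 0.0892 over all alternatives). GR KO cultures read 368, 372 and 371 and 333, 388 and 412 CPM. The difference of the effects between the lines was -1.12 (SE 0.184, adjusted p = 0.0322 by edgeR), but 9 of 11 fits leaving out 1 culture lost that call, all but those without parental DMSO culture 2 or GR KO GC culture 1 (up to 0.267).

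Promoter sequences are shown for *Tnf*, the gene that fell, and for the 4 members whose promoters hold a match to the κB consensus, the DNA motif bound by NF-κB. RefSeq promoters (250 bases before to 50 after a gene's start, build GRCm38.p6) were found for 7 of the 10 members, in 10 entries of 300 bases; *Nfkbiz*, *Nfkb1* and *Relb* are named only. The κB consensus was searched on both strands and found in 4 of the 7 members (*Nfkbia*, *Nfkbie*, *Nfkb2* and *Tnfaip3*). Counted by promoter, 6 of 10 held a match, against 8.46% of 32851 promoters. Of these 6 entries 3 are of *Nfkb2*, and 2 of these overlap and hold the same site, which is thus counted in each. The glucocorticoid response element half-site pair ACANNNTGT, likewise on both strands, was found in 0 of the 10 promoters, against 6.85% of all promoters. The windows are chr17:35201958-35202257 for *Tnf* (minus strand), chr12:55492598-55492897 for *Nfkbia* (minus strand), chr17:45555450-45555749 for *Nfkbie* (plus strand), chr19:46304487-46304786 for the first *Nfkb2* entry (plus strand) and chr10:19015361-19015660 for the first *Tnfaip3* entry (minus strand). Each is written 5′ to 3′ on the gene's strand, with κB matches in capitals.
Tnf: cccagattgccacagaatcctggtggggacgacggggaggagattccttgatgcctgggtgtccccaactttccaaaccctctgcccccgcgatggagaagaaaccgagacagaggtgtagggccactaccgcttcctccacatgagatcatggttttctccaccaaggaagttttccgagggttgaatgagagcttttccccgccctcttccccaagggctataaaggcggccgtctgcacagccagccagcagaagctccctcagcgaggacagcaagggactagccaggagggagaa
Nfkbia: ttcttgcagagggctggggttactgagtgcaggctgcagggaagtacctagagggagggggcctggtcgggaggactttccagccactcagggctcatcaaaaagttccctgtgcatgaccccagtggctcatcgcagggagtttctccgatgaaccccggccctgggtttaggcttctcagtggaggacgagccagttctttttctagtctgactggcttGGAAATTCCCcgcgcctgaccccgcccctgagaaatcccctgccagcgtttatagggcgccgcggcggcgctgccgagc
Nfkbie: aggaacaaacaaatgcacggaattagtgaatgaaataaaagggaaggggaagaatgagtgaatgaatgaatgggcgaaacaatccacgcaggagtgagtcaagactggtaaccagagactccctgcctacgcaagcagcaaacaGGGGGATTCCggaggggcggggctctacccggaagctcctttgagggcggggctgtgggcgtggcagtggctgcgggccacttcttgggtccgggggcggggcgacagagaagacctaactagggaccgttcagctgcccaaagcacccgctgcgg
Nfkb2: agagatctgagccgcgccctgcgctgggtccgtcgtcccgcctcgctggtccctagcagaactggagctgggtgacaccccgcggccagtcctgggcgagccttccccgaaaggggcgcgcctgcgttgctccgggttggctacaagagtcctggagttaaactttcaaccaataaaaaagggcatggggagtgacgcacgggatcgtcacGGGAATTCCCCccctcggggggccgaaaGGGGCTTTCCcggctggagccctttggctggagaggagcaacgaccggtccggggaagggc
Tnfaip3: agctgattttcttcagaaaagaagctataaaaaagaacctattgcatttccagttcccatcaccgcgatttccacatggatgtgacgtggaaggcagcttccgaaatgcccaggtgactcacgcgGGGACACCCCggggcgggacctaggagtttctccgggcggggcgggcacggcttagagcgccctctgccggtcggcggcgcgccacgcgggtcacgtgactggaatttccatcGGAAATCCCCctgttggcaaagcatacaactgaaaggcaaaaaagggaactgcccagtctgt

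*Nfkb2* and *Tnfaip3* hold 2 matches each in the entries shown, on both strands, *Nfkbia* holds 1 on the opposite strand and *Nfkbie* 1 on its own strand. *Tnf* holds none in this window, as do *Nfkbib* and *Birc3*, which says only that these letters are absent there.

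No strand setting is named for the read counting. The methods state only in general that software ran at its defaults, and the default of featureCounts ignores the strand. Counts may therefore be affected where genes overlap, whether reads of the shared stretch were added or left unassigned. The 3′ end of *Nfkb2* overlaps *Psd* on the other strand by 299 bases, where *Psd* had 0 to 663 counts and *Nfkb2* 552 to 2990. The 3′ end of *Nfkbib* overlaps *Ccer2* by 718 bases. *Ccer2* had no more than 11 counts in any library, which does not show whether reads of the shared stretch were left unassigned. How far reads of the shared stretches change the levels of *Nfkb2* and *Nfkbib* was not tested.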

How the data were processed

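RNA from 20 tumors and 11 cultures was sequenced as 3′ libraries. The authors trimmed reads with Trim Galore 0.6.5, aligned them to GRCm38 with STAR 2.6.1d and deposited whole-number counts per gene from featureCounts with Ensembl release 75. No strand setting is named, and the methods state in general that software ran at its defaults. Library totals bound the precision, as 3 counts equal 0.108 to 0.216 CPM.

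From these counts, genes that reached 0.5 CPM in 3 or more of an experiment's samples were tested with edgeR 4.0.16 (quasi-likelihood, TMM, R 4.3.3), with the 4 groups of each experiment in 1 fit and p-values adjusted over all genes by the Benjamini-Hochberg method. DESeq2 1.42.0, other scaling, filters, fold limits, a replicate block and left-out libraries were alternatives. The script was tested on simulated data. Standard errors are the log2 fold change divided by the root of F, and 95% intervals use the t distribution with edgeR's degrees of freedom.

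The text names all 10 genes, pathway genes called in a GC contrast or a difference of GC effects (up to 12 per contrast), the GC check genes, and for *Tnf* and *Nfkbia* the 5 most alike genes of at least 1 CPM. *Rela* in the genotype contrast was added after its values were seen. Members and lists were chosen with earlier results of these data known. No pair of libraries was near sampling noise (mean chi-square of at least 8.4), so none was merged.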

Additional observations from a re-analysis of the deposited data

Results flagged for a closer look

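In groups of 5 tumors, a single tumor was set apart by its gap to the others in 0 of 40 groups of the 10 genes and in 5 of 52 groups of marker sums and library measures, where chance sets apart about 1 in 20. In GR KO GC tumor 2 the leukocyte markers summed to 1100 CPM (834 to 887 in the others) and the monocyte and macrophage markers to 8730 CPM (5140 to 5990). In parental control tumor 5 the keratinocyte markers summed to 3630 CPM (1570 to 1850) and the neutrophil markers to 1260 CPM (53.1 to 262). In parental control tumor 2 mitochondrial genes took 2.47% of counts (1.25% to 1.46%). *Tnf* in these 3 tumors, at 1.97, 11.7 and 9.44 CPM, lay within the range of the other tumors of its group, apart from parental control tumor 2, the lowest of its group.

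The GC effect differed between parental and GR KO cultures by a log2 difference of -1.12 (SE 0.184, adjusted p = 0.0322 by edgeR) for *Timp3*, 3.14 (SE 0.267, adjusted p = 0.000332 by edgeR) for *Tsc22d3* and 3.00 (SE 0.371, adjusted p = 0.00415 by edgeR) for *Per1*. The GC effect went in opposite directions in parental tumors and parental cultures, with no overlap of groups in either, for *Timp3* (log2 fold change 1.05 in tumors and -1.06 in cultures) and for *Vcam1* (1.01 and -0.29, the latter not called by edgeR). The difference between tumors and cultures was not tested, and host cells and growth conditions cannot be told apart there.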

How the results depend on the processing

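Of 172 alternative counts of members called, 167 stayed within 1.5 times the reported count. DESeq2 called 2 members in parental tumors. A filter of at least 10 counts in every sample left *Tnf* untested and gave 0 members in parental and 0 in GR KO tumors by edgeR. Leaving out parental GC tumors 2 and 4, or all 5 tumors that stood apart, gave 0 in parental tumors by edgeR, and fewer samples lie behind those fits. With the replicate block, 1 member was called in parental and 1 in GR KO tumors and the log2 fold change of *Tnfaip3* in parental tumors turned from 0.11 to -0.23. Same-numbered tumors of different groups had a mean correlation of 0.0583 (-0.543 to 0.415) over 30 pairs. Tumors of unlike number had -0.0128 (-0.454 to 0.55) over 120 pairs. In cultures the means were 0.0198 for 15 same-numbered and -0.0121 for 30 other pairs. These wide ranges showed no clear pairing by number and cannot exclude it.

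Of 1089 alternative log2 fold changes, 985 kept direction and side of the threshold, 58 lost a call, 1 became called and 45 changed sign, all of them values not called. Without parental GC tumors 2 and 4 the values in parental tumors were -0.10 for *Nfkbiz*, -0.14 for *Nfkb1* and 0.0915 for *Birc3*. Without GR KO control tumors 1, 2 and 5 those in GR KO tumors were -0.27 for *Nfkbia*, -0.0840 for *Nfkbiz*, 0.14 for *Tnfaip3* and -0.10 for *Birc3*. Without all 5 they were -0.0838 (*Nfkbiz*), -0.13 (*Nfkb1*) and 0.11 (*Birc3*) in parental tumors, and -0.24 (*Nfkbia*), -0.0528 (*Nfkbiz*), 0.18 (*Tnfaip3*) and -0.0609 (*Birc3*) in GR KO tumors. Without parental DMSO culture 2 they were -0.12 for *Nfkbib*, 0.00373 for *Nfkbie* and 0.0186 for *Birc3* in parental cultures. These 4 exclusions were chosen after seeing the data, and the cause was not tested.

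Leaving out each library in turn gave ranges that crossed 0. In parental tumors they were -0.0147 to 0.31 (*Nfkb1*), -0.0103 to 0.18 (*Nfkbiz*) and -0.40 to 0.43 (*Tnfaip3*). In GR KO tumors they were -0.28 to 0.16 (*Nfkbib*), -0.0126 to 0.20 (*Nfkbiz*) and -0.98 to 0.12 (*Tnfaip3*). In parental cultures they were -0.88 to 0.30 (*Birc3*), -0.12 to 0.24 (*Nfkbib*), -0.61 to 0.00373 (*Nfkbie*), -0.33 to 0.13 (*Nfkbiz*) and -0.77 to 1.80 (*Tnfaip3*). In GR KO cultures they were -1.86 to 0.30 (*Birc3*), -0.14 to 0.13 (*Nfkbia*), -0.32 to 0.0803 (*Relb*) and -0.27 to 0.79 (*Tnfaip3*). With a parental GC culture left out, the other was assumed to vary like the other groups.

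With scaling factors from each experiment alone, 77 of 80 group means moved by less than their SD. Those that moved more were *Nfkbie* in parental GC cells (1.84 CPM), *Nfkb2* in GR KO DMSO cells (39.0 CPM) and *Relb* in parental GC cells (3.13 CPM). With a smaller pseudocount *Lhfpl1* and *Eef1a2* left the 5 genes most alike to *Tnf* (0.601 and 0.585), and *Rpl22l1* left those of *Nfkbia*, with *Fbxw4* (0.963) in its place. Depth limits *Tnf*, *Tnfaip3* and *Birc3* in cultures, where values lie close to the floor.

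Of 117 alternative counts of pathway genes called, 87 stayed within 1.5 times the reported count and 30 moved. Leaving out GR KO control tumors 1, 2 and 5 took the count in GR KO tumors from 10 to 5. These data are bulk measurements of 5 mice or 2 to 3 cultures per group, with host cells that kept the receptor, so that the cell type in which *Tnf* fell, and whether it fell through the receptor of the host, was not tested. RNA levels of these genes do not give the amount of protein or the activity of NF-κB.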
